A study of Homo sapiens with 8 samples.

Results

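MHC class I antigen presentation is described here through 9 genes measured in KYSE150, an established human esophageal squamous cell carcinoma line. The genes were taken by name from the 15852 genes of the deposited count table: the class I chains HLA-B, HLA-C and HLA-E, their light chain B2M, the peptide transporter subunits TAP1 and TAP2, the loading factor TAPBP, and the trimming peptidases ERAP1 and ERAP2. All 9 were found and all 9 had enough counts to be tested. The series compares 4 libraries labelled ShBOLA3-L, in which the L isoform of BOLA3 was knocked down, with 4 libraries labelled Control. All 8 libraries are polyA RNA of the same line, with no further treatment listed, and no label states whether the 4 libraries of a group came from separate cultures or clones, so their spread may be technical. BOLA3 itself, counted over all its isoforms, stood at 6.06, 6.64, 6.33 and 7.29 CPM (counts scaled to library size, TMM-normalised) in knockdown replicates 1 to 4 and at 21.6, 19.1, 20.5 and 21.8 CPM in control replicates 1 to 4, which is -1.66 on the log2 scale (SE 0.0821, edgeR adjusted p 6.9e-11).

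MHC class I molecules carry short peptides from inside the cell to its surface, where cytotoxic T cells and natural killer cells read them. Proteasomes cut cytosolic proteins into peptides, the TAP1-TAP2 transporter moves these into the endoplasmic reticulum, ERAP1 and ERAP2 trim their amino ends, and TAPBP (tapasin) holds the transporter next to an empty class I molecule while a peptide binds. A complete molecule needs a heavy chain, B2M and a peptide. In tumours, loss of some of these parts, such as B2M or the TAP1-TAP2 transporter, is known as a way to escape T cells. Interferon gamma raises most parts of the pathway through transcription factors that include IRF1 and NLRC5.

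After knockdown the class I genes moved little. TAP2 fell by 0.17 and HLA-E by 0.11 on the log2 scale, ERAP2 rose by 0.17, and the other 6 did not pass the test. That is 3 of 9 genes, or 33.3%, against 30.7% of all 11841 tested genes (15.6% fell and 15% rose), so the share called among the class I genes is close to that of the genome. The groups did not overlap in 3 of the 9 genes, the same 3, against 30.2% of all tested genes. The median log2 change was -0.04 over the 9 genes and 0.00 over all tested genes, and the median absolute log2 change was 0.10 over the 9 and 0.11 over all. With control replicate 3 left out, 1 of the 9 was called, against 24.2% of all tested genes. With BOLA3-L knockdown replicate 1 left out it was 4 of 9, against 42.7%, and with BOLA3-L knockdown replicate 4 left out also 4, against 27.7%.

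In whole-culture RNA, fewer cells of a type and less RNA per cell cannot be told apart. Totals ranged from 31178036 to 35147860 counts per library, and 3 counts correspond to 0.0851 to 0.0969 CPM. BOLA3-L knockdown replicate 1 stood apart from the other knockdown libraries on the second principal component (20.1, against -10.1 to -4.81), and its deviation from them ran with transcript GC content (Pearson's r -0.59 across 11584 genes, which are not independent replicates), against 0.15 to 0.33 in the other knockdown libraries. The squamous keratin KRT5 was abundant, at 1752 to 2023 CPM in knockdown libraries and 3117 to 3141 CPM in controls. Of 14 tested squamous markers 13 fell and 1 rose, or 100% called, against 30.7% of all tested genes (15.6% fell and 15% rose). Their summed level was 4915 to 5463 CPM in knockdown libraries and 7107 to 7189 CPM in controls, and their part in the results was not tested. Of 18 leukocyte markers in the table only 3 had enough counts to be tested, and the list's summed level of 77.1 to 83.0 CPM in knockdown libraries and 80.5 to 87.4 CPM in controls was mostly CD68, a lysosomal protein (90.4% of its sequence also occurs in other genes). PTPRC, which defines leukocytes, was at 0 in every knockdown library and at 0 to 0.152 CPM in controls. The fibroblast list summed to 4.57 to 7.26 CPM in knockdown libraries and 9.97 to 14.8 CPM in controls, and the endothelial list to 9.99 to 11.9 and 16.6 to 19.3 CPM.

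Upstream sequences of some of the class I genes are shown because those of HLA-B and HLA-C are nearly alike, while the genes are far apart in counted level. The windows are the 250 bases before the start in RefSeq on GRCh38.p14, 5′ to 3′ on the strand of the gene, and capitals mark motif matches on either strand. The motifs reported are CCAAT (bound by NF-Y), an NF-kB motif (the capital run that begins with GGGG in HLA-B), GAAA and GAAA with 2 free bases between them, and GAAANGAAA with 1 (both interferon response elements bound by IRF factors). They occur in 32%, 0.0683%, 3.02% and 2.69% of all 35116 windows of that length. The windows lie at chr6:31357180-31357429 (minus strand) for HLA-B, chr6:31272093-31272342 (minus) for HLA-C, chr15:44711267-44711516 (plus) for B2M, chr6:32853705-32853954 (minus) for TAP1 and chr6:32838740-32838989 (minus) for TAP2.
HLA-B: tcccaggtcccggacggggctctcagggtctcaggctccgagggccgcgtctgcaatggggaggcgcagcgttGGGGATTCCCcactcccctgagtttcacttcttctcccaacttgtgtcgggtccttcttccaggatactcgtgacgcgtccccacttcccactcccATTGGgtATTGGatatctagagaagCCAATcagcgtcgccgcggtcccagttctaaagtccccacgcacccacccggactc
HLA-C: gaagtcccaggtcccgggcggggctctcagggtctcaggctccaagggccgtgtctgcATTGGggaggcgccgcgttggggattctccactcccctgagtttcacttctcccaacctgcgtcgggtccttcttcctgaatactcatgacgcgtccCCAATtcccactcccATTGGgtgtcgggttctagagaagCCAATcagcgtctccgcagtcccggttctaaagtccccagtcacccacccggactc
B2M: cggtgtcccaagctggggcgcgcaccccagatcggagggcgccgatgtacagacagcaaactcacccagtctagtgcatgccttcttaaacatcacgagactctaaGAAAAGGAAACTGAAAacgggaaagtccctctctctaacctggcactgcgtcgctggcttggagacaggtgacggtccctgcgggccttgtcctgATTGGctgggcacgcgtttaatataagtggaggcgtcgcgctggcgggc
TAP1: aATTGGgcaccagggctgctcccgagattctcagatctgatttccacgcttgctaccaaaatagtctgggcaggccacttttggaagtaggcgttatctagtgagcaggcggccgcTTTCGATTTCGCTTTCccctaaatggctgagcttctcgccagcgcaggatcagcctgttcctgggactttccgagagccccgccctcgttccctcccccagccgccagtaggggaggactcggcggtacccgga
TAP2: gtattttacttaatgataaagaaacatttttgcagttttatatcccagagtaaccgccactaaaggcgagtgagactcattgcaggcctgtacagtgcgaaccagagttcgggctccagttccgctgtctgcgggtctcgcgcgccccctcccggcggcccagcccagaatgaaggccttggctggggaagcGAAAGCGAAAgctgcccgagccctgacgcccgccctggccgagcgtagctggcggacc

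The HLA-B and HLA-C windows were identical at 226 of 254 aligned columns (89%), and both held CCAAT matches, of which HLA-B had 3 and HLA-C had 4. The NF-kB motif occurred in the HLA-B window and not in that of HLA-C. B2M, TAP1 and TAP2 each held the IRF motif with 2 free bases, in B2M and TAP1 as a pair of overlapping matches. The same motif also occurred in the window of TAPBP, as an overlapping pair, and in a window of ERAP2. GAAANGAAA occurred only in a window of ERAP1. The windows of TAPBP, ERAP1 and ERAP2 are not shown, and none was available for HLA-E. TAP1 has a second window in the table, nearer to its coding part, which is not shown. A match is a description of letters, and binding was not measured. These are reference alleles, and the alleles of KYSE150 were not read.

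Levels per length were compared in FPKM (fragments scaled to gene length and library size), which the authors computed from the same counts. B2M was highest, at 307 ± 13.6 FPKM in knockdown libraries and 311 ± 19.1 FPKM in controls (SD, n = 4 each). HLA-E followed with 137 ± 3.81 and 146 ± 2.97 FPKM in knockdown and control libraries, and HLA-C with 58.6 ± 5.86 and 64.2 ± 1.28 FPKM (SD, n = 4 each). Among the counted chains HLA-B, HLA-C and HLA-E, HLA-E made up 69.8 ± 1.88% of the summed FPKM in knockdown libraries and 69.2 ± 0.861% in controls (SD, n = 4 each). TAPBP, TAP2 and TAP1 lay close together at 19.3 ± 0.996, 18.4 ± 0.433 and 17.3 ± 0.65 FPKM in knockdown libraries (SD, n = 4), where each overlapped its neighbour in that order. In controls their order was TAP2, TAPBP and TAP1, at 20.4 ± 0.248, 18.2 ± 0.879 and 15.9 ± 0.542 FPKM (SD, n = 4), with no overlap between neighbours. ERAP2 (4.06 ± 0.149 and 3.56 ± 0.183 FPKM in knockdown and control libraries) and ERAP1 (2.62 ± 0.0896 and 2.76 ± 0.113 FPKM) were lower, and HLA-B was lowest at 0.872 ± 0.232 and 0.803 ± 0.258 FPKM (SD, n = 4 each).

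**Figure D1:**
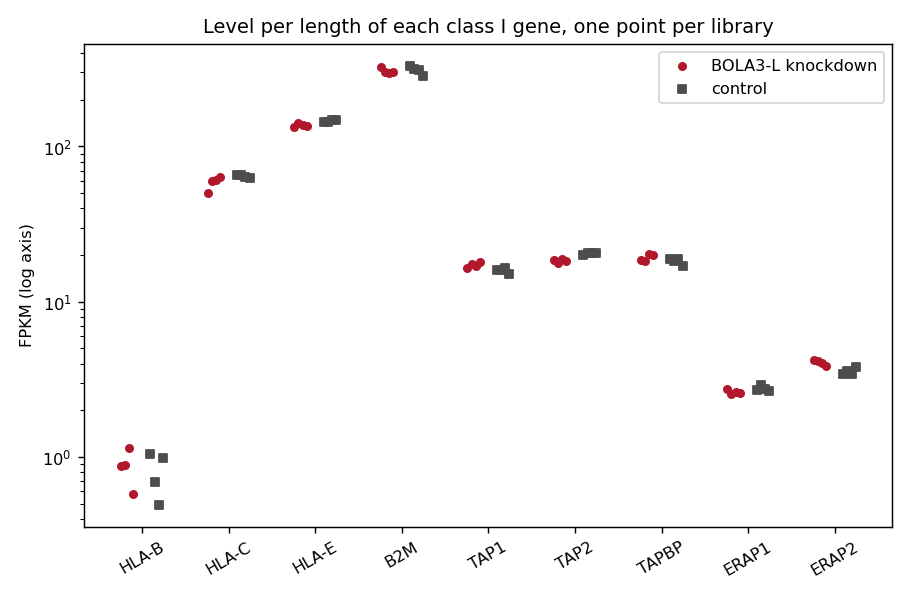
FPKM (log axis) of each class I gene, with 1 point per library, knockdown libraries as circles to the left of control libraries as squares. The means run from 0.872 FPKM for HLA-B to 307 FPKM for B2M in knockdown libraries.

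Among the chains, HLA-E (identifier 3133, chromosome 6, 30489509 to 30494194 in GRCh38), a conserved class I molecule that presents leader peptides of other class I chains to natural killer cell receptors, fell slightly. It stood at 353, 380, 365 and 363 CPM in knockdown replicates 1 to 4 and at 389, 387, 399 and 403 CPM in control replicates 1 to 4. Every knockdown library was below every control. HLA-E fell by 7.36%, or -0.11 on the log2 scale (SE 0.0338, edgeR adjusted p 0.0183). The call was lost without control replicate 3 or 4 (adjusted p 0.0638 and 0.0623).

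HLA-C (identifier 3107, chromosome 6, 31268749 to 31272092), a classical chain that is also the main ligand of killer immunoglobulin-like receptors, stood at 76.7, 91.5, 92.7 and 98.2 CPM in knockdown replicates 1 to 4 and at 102, 101, 98.7 and 97.4 CPM in control replicates 1 to 4. The groups overlapped, and BOLA3-L knockdown replicate 1 was the lowest library by a wide margin. The log2 change of -0.15 (SE 0.0578) did not pass the test (adjusted p 0.0557). Without that library it was -0.08 (adjusted p 0.0578), and without BOLA3-L knockdown replicate 4 it was -0.20 and passed (adjusted p 0.0155). The longest annotated HLA-C transcript has 62.7% GC, the highest of the 9 genes. With each library corrected for its trend on GC content, an alternative chosen after seeing the data, the change was -0.16 (adjusted p 3.7e-04), and it was -0.15 (adjusted p 3.8e-04) with BOLA3-L knockdown replicate 1 left out as well.

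HLA-B (identifier 3106, chromosome 6, 31353875 to 31357179), the most polymorphic classical chain, was counted at 42, 48, 60 and 30 reads in knockdown replicates 1 to 4 and at 50, 34, 25 and 50 reads in control replicates 1 to 4. That is 1.33, 1.36, 1.74 and 0.882 CPM in knockdown libraries and 1.62, 1.07, 0.759 and 1.52 CPM in controls. The groups overlapped widely. The log2 change of 0.10 had an SE of 0.26 (adjusted p 0.802), and its sign turned without BOLA3-L knockdown replicate 3 (-0.06) or control replicate 3 (-0.08), and neither a rise nor a fall could be read from these counts. How far reads of non-reference alleles were counted was not tested, and no 75-base window of the reference HLA-B transcript occurred in other genes, against 1.37% of windows for HLA-C and 2.94% for HLA-E.

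B2M (identifier 567, chromosome 15, 44711517 to 44718145), the invariant light chain that every class I heavy chain needs, stood at 313, 291, 286 and 291 CPM in knockdown replicates 1 to 4 and at 322, 309, 304 and 278 CPM in control replicates 1 to 4. The lowest library was a control, and the groups overlapped. The log2 change was -0.04 (SE 0.0436, adjusted p 0.539). Within libraries, the log2 ratio of HLA-E counts to B2M counts was lower by -0.07 (SE 0.0749) in knockdown libraries, and that of HLA-C to B2M by -0.12 (SE 0.11). Neither differed between the groups in an exact two-sided permutation test (p = 0.4 and 0.314).

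**Figure D2:**
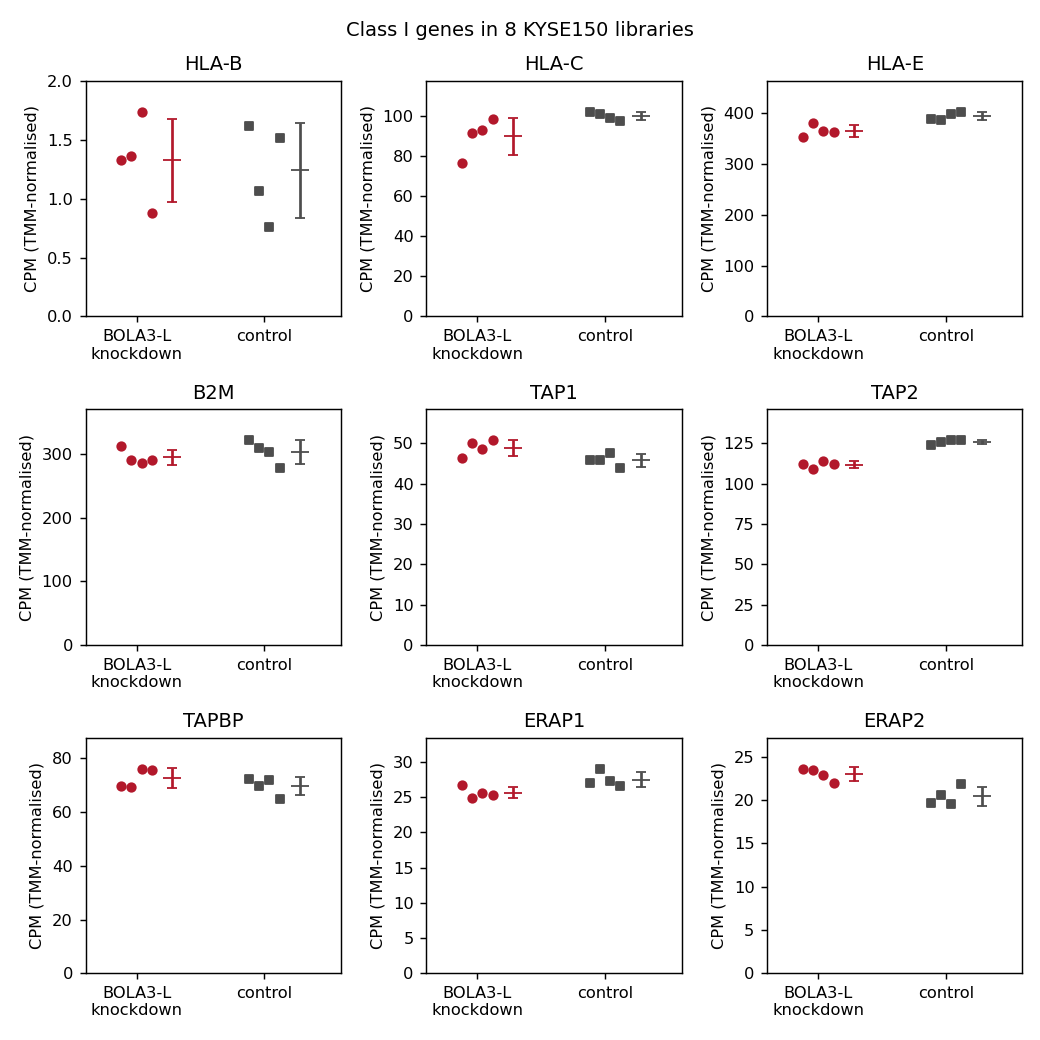
CPM of each class I gene in the 4 knockdown libraries (circles, left) and 4 control libraries (squares, right), with replicates 1 to 4 from left to right in each group, beside the mean and SD, and with every axis starting at 0. HLA-E and TAP2 were lower and ERAP2 higher in every knockdown library than in every control, while the other 6 genes overlapped.

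The transporter subunits gave opposite signs. TAP2 (identifier 6891, chromosome 6, 32821831 to 32838739) fell: it stood at 112, 109, 114 and 112 CPM in knockdown replicates 1 to 4 and at 124, 126, 127 and 127 CPM in control replicates 1 to 4. The groups were well apart, since the highest knockdown library lay below the lowest control by more than the range within either group. TAP2 fell by 11.2%, or -0.17 on the log2 scale (SE 0.0371, edgeR adjusted p 0.00175), and the call held in all 19 alternative settings (adjusted p 6.2e-06 to 0.00962). In GENCODE v29, 32.3% of the exonic bases of TAP2 are shared with AL669918.1, an annotated gene on the same strand, so part of the TAP2 reads could be split between these genes.

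TAP1 (identifier 6890, chromosome 6, 32845209 to 32853704) stood at 46.3, 50.1, 48.5 and 50.8 CPM in knockdown replicates 1 to 4 and at 46.0, 45.8, 47.6 and 43.8 CPM in control replicates 1 to 4. The groups overlapped only through BOLA3-L knockdown replicate 1. The log2 change was 0.10 (SE 0.0497, adjusted p 0.155). Without BOLA3-L knockdown replicate 1 it was 0.12 and passed (adjusted p 0.0224), but with GC-corrected offsets as well it was 0.08 and did not (adjusted p 0.117). An antisense gene, PSMB8-AS1, covers 9.49% of the exonic bases of TAP1, and no source used here says whether counting was by strand.

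The log2 ratio of TAP1 to TAP2 counts within a library was -1.28, -1.12, -1.24 and -1.14 in knockdown replicates 1 to 4 and -1.43, -1.46, -1.42 and -1.53 in control replicates 1 to 4. All knockdown libraries were above all controls, by 0.27 on average (SE 0.0467). TAPBP (identifier 6892, chromosome 6, 33299694 to 33314078) stood at 69.6, 69.2, 76.2 and 75.8 CPM in knockdown replicates 1 to 4 and at 72.2, 69.7, 71.9 and 64.9 CPM in control replicates 1 to 4. Its groups overlapped, with a log2 change of 0.06 (SE 0.0497, adjusted p 0.38). The log2 ratio of TAP2 to TAPBP was lower in knockdown libraries by -0.23 (SE 0.0493), again without overlap, and that of TAP1 to TAPBP differed by 0.03 (SE 0.042), with overlap. Each of the ratios without overlap reached p = 0.0286 in the exact two-sided permutation test, the smallest that 4 against 4 libraries allow. After Benjamini-Hochberg adjustment over the 13 pairs tested this was 0.0743, which does not pass 0.05. With the number of pairs that reached the smallest p, the adjusted value could not be lower, however large the differences.

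The trimming peptidases also gave opposite signs. ERAP2 (identifier 64167, chromosome 5, 96875984 to 96919716) stood at 23.6, 23.5, 22.9 and 21.9 CPM in knockdown replicates 1 to 4 and at 19.7, 20.6, 19.5 and 21.8 CPM in control replicates 1 to 4. The groups did not overlap, but BOLA3-L knockdown replicate 4 and control replicate 4 were nearly level. ERAP2 rose by 12.5%, or 0.17 on the log2 scale (SE 0.0614, edgeR adjusted p 0.0424). The call was lost without BOLA3-L knockdown replicate 2 or 3 or control replicate 1, 2 or 3 (adjusted p from 0.0747 to 0.127).

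ERAP1 (identifier 51752, chromosome 5, 96760813 to 96935854) stood at 26.7, 24.9, 25.6 and 25.3 CPM in knockdown replicates 1 to 4 and at 27.0, 29, 27.3 and 26.5 CPM in control replicates 1 to 4. The groups overlapped through BOLA3-L knockdown replicate 1, and the log2 change of -0.10 (SE 0.0563) did not pass (adjusted p 0.204). The log2 ratio of ERAP1 to ERAP2 counts was 0.18, 0.08, 0.16 and 0.21 in knockdown replicates 1 to 4 and 0.45, 0.49, 0.48 and 0.28 in control replicates 1 to 4. All knockdown libraries were below all controls, by -0.27 on average (SE 0.0571, exact permutation p = 0.0286, adjusted 0.0743).

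**Figure D3:**
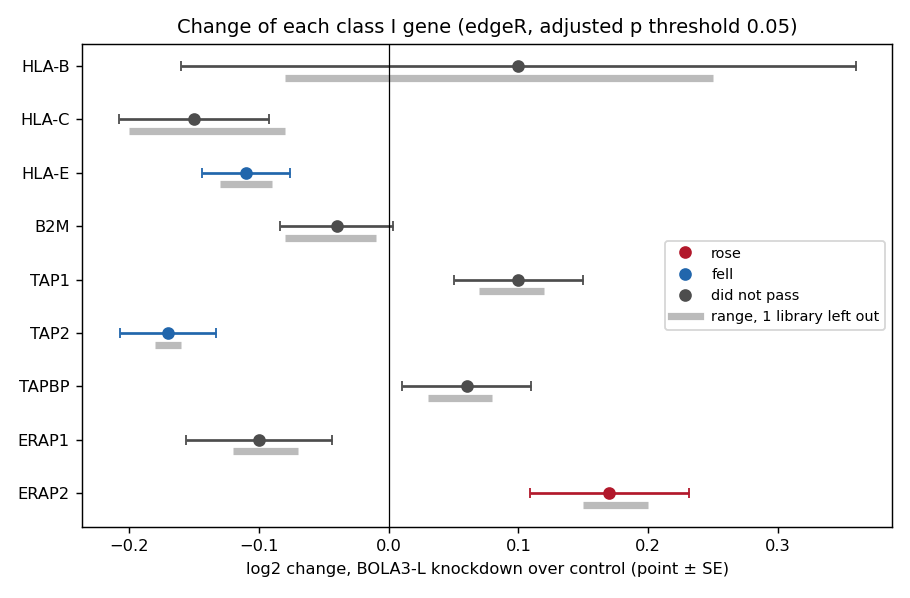
Log2 change of each class I gene in knockdown over control libraries, as the edgeR estimate ± SE, with grey bars for the range when each library was left out in turn. TAP2 (-0.17) and HLA-E (-0.11) fell and ERAP2 (0.17) rose, and only the grey bar of HLA-B crosses 0.

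By profile, the genes most like TAP2, the member with the smallest p, were MMS19, which takes part in cytosolic iron-sulfur cluster delivery, the mitotic kinesin KIF20A and the histone variant MACROH2A1. Their log2 CPM, centred on the control mean, differed from that of TAP2 by a root mean square of 0.0153, 0.0183 and 0.0212 over the 8 libraries. Their log2 changes were -0.17, -0.18 and -0.17 (edgeR adjusted p 0.0016, 5.8e-04 and 5.9e-04). The likeness is a description and carries no test.

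The proteasome makes the peptides. Of 6 genes for interferon-inducible subunits and their regulators, 2 rose and 1 fell, or 50% against 30.7% of all tested genes (median log2 change 0.09, against 0.00 over all tested genes). PSMB9, a catalytic subunit of the immunoproteasome that is transcribed away from TAP1 on the opposite strand, stood at 14.8, 15.3, 14.4 and 14.8 CPM in knockdown replicates 1 to 4 and at 11.5, 12.4, 11.3 and 13.3 CPM in control replicates 1 to 4. It rose by 0.29 on the log2 scale (SE 0.0752, edgeR adjusted p 0.00731). PSME1, a subunit of the PA28 activator, rose by 0.25 (SE 0.041, adjusted p 1.4e-04), and PSMF1, a proteasome inhibitor, fell by 0.18 (SE 0.0392, adjusted p 0.0016).

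PSMB8, another catalytic subunit (0.12, adjusted p 0.118), and PSME2, the partner of PSME1 (0.07, adjusted p 0.307), did not pass in edgeR. Both passed once BOLA3-L knockdown replicate 1 was left out (0.16 and 0.12, adjusted p 0.00421 and 0.00218), where 5 of the 6 genes were called, against 42.7% of all tested genes. Of 5 genes for constitutive counterparts and other activators, only PSME4, the PA200 activator, fell (-0.18, adjusted p 0.00325). That is 20% of the list, against 30.7% of all tested genes. Without BOLA3-L knockdown replicate 1, 2 of the 5 were called, against 42.7% of all tested genes.

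The inducible and constitutive catalytic subunits replace each other in pairs. The log2 ratio of PSMB9 to PSMB6 counts was -3.22, -3.19, -3.21 and -3.17 in knockdown replicates 1 to 4 and -3.49, -3.34, -3.61 and -3.38 in control replicates 1 to 4, higher by 0.26 (SE 0.0605) with no overlap. The log2 ratio of PSMB8 to PSMB5 was higher by 0.16 (SE 0.0477), also with no overlap, although BOLA3-L knockdown replicate 4 and control replicate 2 were level at -1.71. That of PSMB10, of whose sequence 34.8% also occurs in other genes, to PSMB7 differed by -0.02 (SE 0.0937), with overlap (exact permutation p = 0.857). The 2 pairs without overlap again reached p = 0.0286 in the exact permutation test and 0.0743 after adjustment over the 13 pairs.

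**Figure D4:**
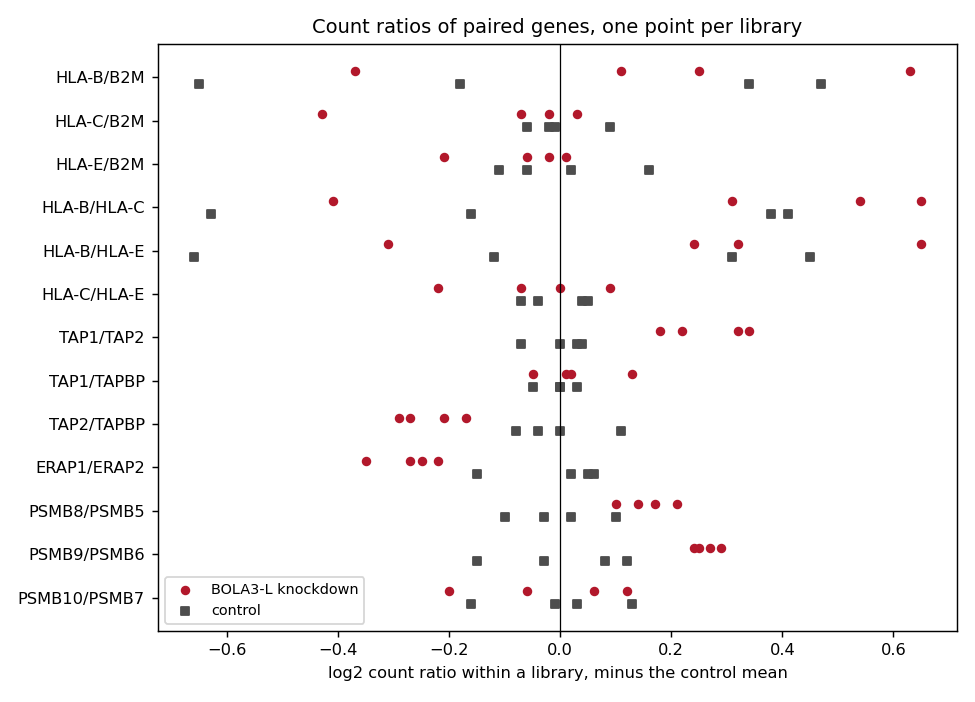
Log2 count ratio of each of 13 gene pairs within a library, minus the control mean of that pair, with 1 point per library, knockdown as circles above control as squares. Knockdown libraries lie apart from controls for TAP1/TAP2, TAP2/TAPBP, ERAP1/ERAP2, PSMB8/PSMB5 and PSMB9/PSMB6, and overlap with them for the other 8 pairs.

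Of 12 tested genes for other class I chains and class I-like molecules, 1 fell and 0 rose in edgeR, or 8.33% against 30.7% of all genes. The gene that fell was ULBP2, a ligand of the activating receptor NKG2D, of whose sequence 21.6% also occurs in other genes (-0.28, SE 0.0787, edgeR adjusted p 0.0117), and its call was lost without control replicate 3 (adjusted p 0.0546). The chain HLA-F (0.08, adjusted p 0.32) did not pass, but did so at 0.16 (adjusted p 5.0e-04) once BOLA3-L knockdown replicate 1 was left out. MICA, another NKG2D ligand (-0.18, adjusted p 0.0601), passed with BOLA3-L knockdown replicate 2 left out (-0.25, adjusted p 0.0174). The count in that list was 3 of 12 without BOLA3-L knockdown replicate 1, against 42.7% of all tested genes. It was 2 without BOLA3-L knockdown replicate 2 or control replicate 4, against 25.1% and 25.6%, and 0 without control replicate 3, against 24.2%.

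Of 12 genes for folding and peptide loading, 2 fell and 1 rose, or 25% against 30.7% of all tested genes. HSPA5, the endoplasmic reticulum chaperone BiP, stood at 687, 695, 684 and 697 CPM in knockdown replicates 1 to 4 and at 844, 811, 826 and 835 CPM in control replicates 1 to 4. It fell by 0.26 on the log2 scale (SE 0.0296, edgeR adjusted p 2.3e-06), with the groups far apart. SAR1B, a GTPase of export from the endoplasmic reticulum, fell by 0.20 (adjusted p 0.00876), and the signal peptide peptidase HM13 rose by 0.11 (adjusted p 0.0477). The call of HM13 was lost without BOLA3-L knockdown replicate 2 or 4 or control replicate 2, 3 or 4 (adjusted p from 0.0809 to 0.15). The loading complex chaperones CALR (-0.02), CANX (0.04) and PDIA3 (0.07) did not pass (adjusted p 0.7, 0.441 and 0.164), and CALR had the other sign without BOLA3-L knockdown replicate 1 (0.01).

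Transcription factors that act on class I promoters moved both ways: of 20 tested, 2 rose and 3 fell, or 25% against 30.7% of all genes. NFYB and NFYC, subunits of the NF-Y trimer that binds CCAAT boxes such as those shown above, went opposite ways. NFYB stood at 47.6, 44.8, 41.7 and 41.2 CPM in knockdown replicates 1 to 4 and at 35.8, 34.5, 35.4 and 36.8 CPM in control replicates 1 to 4, or 0.30 on the log2 scale (SE 0.0559, edgeR adjusted p 5.1e-04). NFYC stood at 44.8, 44.0, 44.0 and 47.3 CPM in knockdown replicates 1 to 4 and at 58.7, 56.5, 54.6 and 56.5 CPM in control replicates 1 to 4, or -0.33 on the log2 scale (SE 0.0476, adjusted p 4.4e-05). In both genes the groups were apart, and the third subunit, NFYA, stood at 0.01 on the log2 scale (adjusted p 0.9), with the other sign without BOLA3-L knockdown replicate 1 (-0.02).

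The NF-kB subunit RELA fell by 0.19 (adjusted p 0.00734) and the corepressor IRF2BP2 by 0.24 (adjusted p 5.7e-04), and the NF-kB precursor NFKB2 rose by 0.15 (adjusted p 0.0427), a call lost when any library other than BOLA3-L knockdown replicate 1 was left out (adjusted p from 0.0756 to 0.131). NLRC5, the class I transactivator, stood at 36.6, 42.3, 40.1 and 41.6 CPM in knockdown replicates 1 to 4 and at 36.4, 36.6, 39.6 and 37.4 CPM in control replicates 1 to 4. NLRC5 did not pass (log2 change 0.10, adjusted p 0.202), with overlap through BOLA3-L knockdown replicate 1, and passed without that library (0.14, adjusted p 0.0163), though not with GC-corrected offsets as well (0.10, adjusted p 0.0848). IRF1 overlapped too (0.04, adjusted p 0.673). In that list 8 of 20 genes were called without BOLA3-L knockdown replicate 1, near the 42.7% of all tested genes in that setting.

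Interferon signalling genes also divided. Of 14 tested receptors, kinases and factors 3 rose and 3 fell (42.9%, against 30.7% of all genes). The receptor chain IFNAR2, of whose sequence 41.4% also occurs in other genes, rose by 0.28 (edgeR adjusted p 0.00118). STAT3 rose by 0.11 (adjusted p 0.0191) and the feedback inhibitor SOCS3 by 0.22 (adjusted p 0.0334). STAT2 fell by 0.17 (adjusted p 0.00713), its partner IRF9 by 0.20 (adjusted p 0.0378; 100% of its 71 sequence windows also occur in AL136295.5, so the value is uncertain for IRF9) and the kinase JAK1 by 0.14 (adjusted p 0.0141). The receptor chain IFNGR2 (-0.11, adjusted p 0.106) did not pass. Without control replicate 3, 3 of the 14 were called, against 24.2% of all tested genes. STAT3 lost its call without control replicate 3 or 4 (adjusted p 0.0704 and 0.0561) and JAK1 without BOLA3-L knockdown replicate 2 or control replicate 3 (0.0596 and 0.0536), and IFNGR2 passed (-0.13, adjusted p 0.0212) once BOLA3-L knockdown replicate 1 was left out. SOCS3 no longer passed with BOLA3-L knockdown replicate 2 or 4 or control replicate 1 or 2 left out (adjusted p from 0.0966 to 0.138), nor did IRF9 with BOLA3-L knockdown replicate 3 or 4 or control replicate 2 or 3 left out (0.059 to 0.123).

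Of 38 tested interferon-stimulated genes 9 fell and 5 rose (36.8%, against 30.7% of all genes), with a median log2 change of -0.03. GBP1, a guanylate-binding protein induced by interferon gamma, stood at 0.824, 1.13, 1.13 and 0.676 CPM in knockdown replicates 1 to 4 and at 3.07, 2.97, 2.67 and 2.77 CPM in control replicates 1 to 4. The knockdown libraries were all far below the controls (log2 change -1.60, SE 0.194, edgeR adjusted p 5.9e-06), at a low level. The nuclear DNA sensor IFI16 fell by 0.60 (adjusted p 1.2e-07) and SAMD9 by 0.37 (adjusted p 4.0e-06). The rises were IFITM3 (0.16), OAS3 (0.22), USP18 (0.44, with 19.3% of its sequence shared), PARP14 (0.19) and HERC6 (0.27). The call of PARP14 was lost without control replicate 1 (adjusted p 0.0639), and that of HERC6 without 6 of the 8 libraries in turn (0.0573 to 0.135), all but BOLA3-L knockdown replicate 3 and control replicate 2. UBE2L6, the ISG15 conjugating enzyme, had no overlap between the groups but did not pass (0.13, adjusted p 0.052). It passed in 9 of 19 alternative settings and not in the other 10. Among the 9 were DESeq2 (0.13, adjusted p 0.0421) and leaving out BOLA3-L knockdown replicate 1 (0.16, adjusted p 0.00206).

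**Figure D5:**
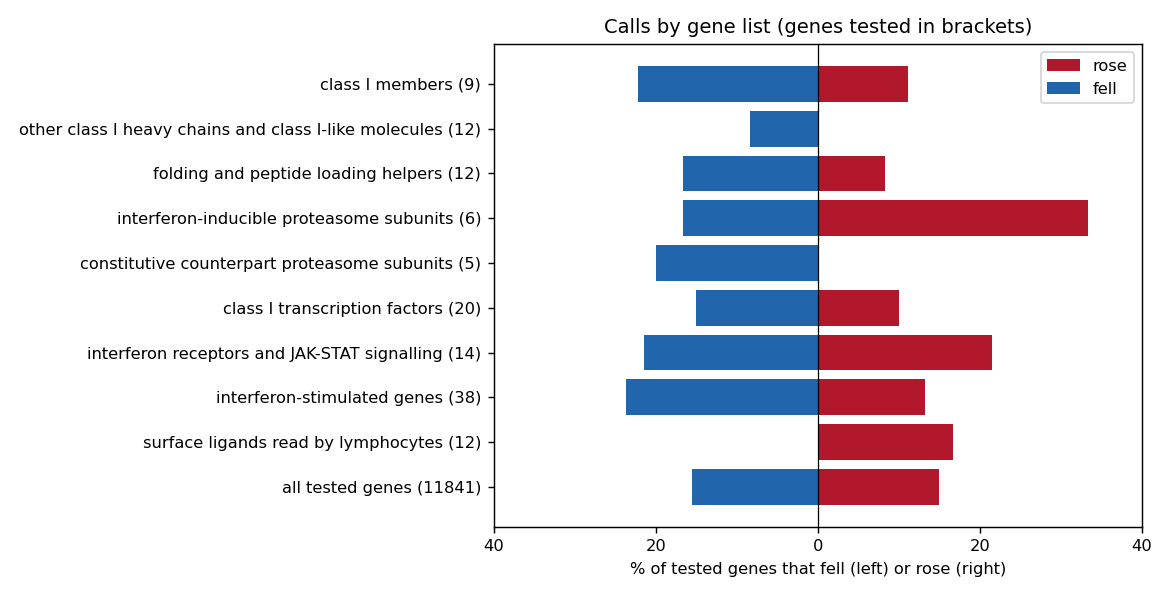
Share of tested genes that fell (left) or rose (right) in each list with at least 5 tested genes, and in all tested genes at the bottom, with the number tested in brackets. The class I genes, with 33.3% called, lie near the 30.7% of all tested genes. Of the 6 interferon-inducible proteasome genes 2 rose and 1 fell, against 15% and 15.6% of all tested genes, a list too small to rank.

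Class II genes, which professional antigen-presenting cells use, were nearly silent. Only 2 of 13 had enough counts to be tested. EdgeR called 0, against 30.7% of all tested genes, and DESeq2 also 0, against 30%. Before adjustment 0 passed 0.05 in edgeR, though HLA-DMA came near it (log2 change -0.73, edgeR p 0.0519). With 2 genes tested, a share called cannot be compared with that of all genes. HLA-DRA was at 0 in 3 of 4 knockdown libraries and 3 of 4 controls, and reached 0.0294 and 0.0304 CPM in the others. HLA-DOB, which lies next to TAP2, stood at 3.43 to 3.87 CPM in knockdown libraries and 3.31 to 4.58 CPM in controls, and 27.6% of its sequence is shared with AL669918.1, the gene that also overlaps TAP2.

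Of 12 surface ligands read by lymphocytes 2 rose and 0 fell in edgeR, or 16.7% against 30.7% of all tested genes, of which 15% rose. PDCD1LG2 (PD-L2), a ligand of the inhibitory receptor PD-1, stood at 4.69, 5.02, 5.11 and 4.32 CPM in knockdown replicates 1 to 4 and at 2.52, 3.00, 2.76 and 2.70 CPM in control replicates 1 to 4. Every knockdown library was above every control (log2 change 0.80, SE 0.133, edgeR adjusted p 1.7e-04). VTCN1 (B7-H4) rose by 0.85 (SE 0.265, adjusted p 0.0198) from a level near 1 CPM, and lost its call without control replicate 3 or 4 (adjusted p 0.0542 and 0.0668). CD274 (PD-L1) was near level (-0.01, adjusted p 0.921). The adhesion ligand ICAM1 (0.09, adjusted p 0.155) passed (0.13, adjusted p 0.00141) once BOLA3-L knockdown replicate 1 was left out, where 5 of the 12 were called, near the 42.7% of all tested genes in that setting. With control replicate 3 or 4 left out, 1 of the 12 was called, against 24.2% and 25.6% of all tested genes.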

How the data were processed

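The authors deposited raw counts per gene and FPKM per gene for 8 libraries, with genome build hg38 per the submitters' processing notes and read filtering with fastp per the series' design text, as the authors gave it. Which aligner, counter and annotation were used is not given in the sources used here. All 110558 FPKM values above 0 that the authors deposited are the gene's count times a constant over the library total, with a tolerance of 1e-06, so they are not independent of the counts.

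After TMM scaling and filterByExpr, counts remained for 11841 of 15852 genes. The test was edgeR's quasi-likelihood F-test in its robust form, Benjamini-Hochberg adjusted over all tested genes at 0.05. The SE is the absolute log2 change over the square root of F. Count ratios of 13 pairs (prior count 0.5) were compared with exact two-sided permutation tests over 70 assignments. The members, lists, pairs and tests were chosen with earlier results of these data known. Named genes are BOLA3, the 9 class I genes, in each list up to 4 called genes by smallest p and up to 2 uncalled by highest FPKM, and the 3 genes most like the member with the smallest p among genes of at least 5 CPM. Some genes the rule takes are not reported here. NLRC5, IRF1, NFYA, NFKB2, IRF9, SOCS3, HLA-F, MICA, PDIA3, CD274, KRT5, CD68, PTPRC, HLA-DRA and the rises among interferon-stimulated genes were named after their values had been seen.

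On simulated counts for this comparison (11789 genes passing), edgeR recovered 70%, 90%, 98% and 100% of planted changes of 1.25, 1.5, 2 and 3-fold and called 9 unchanged genes. The estimated changes of all 9 class I genes were below 1.25-fold (fold 0.888 for TAP2 to 1.13 for ERAP2), and recovery of changes that small was not simulated. The estimate for HLA-B had an SE of 0.26 on the log2 scale, so a larger change was not excluded for that gene. Shared sequence is the share of 75-base windows, every 25 bases of the longest GENCODE v29 transcript, found in other genes. Alternatives were RLE and upper quartile normalization, no filter, 1 CPM or more in 4 libraries, a block for replicate number, leaving out each library, DESeq2, limma on log2 FPKM (pseudocount 1 or 0.1, minimum 0.5 FPKM or none) and, added after seeing the data, GC-corrected offsets with and without BOLA3-L knockdown replicate 1. The software was edgeR 4.0.16, DESeq2 1.42.0 and limma 3.58.1 in R 4.3.3, with scipy 1.17.1, numpy 2.4.6, biopython 1.88, pandas 2.3.3 and matplotlib 3.10.9 in Python 3.11.15.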

Additional observations from a re-analysis of the deposited data

Results flagged for a closer look

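A library far from the other 3 of its group was found in 7 of 166 groups of values examined, and chance gives about 1 in 20. Each is given in CPM with no explanation. Among class I and class II chains, HLA-F stood at 64.9 in BOLA3-L knockdown replicate 1, below 79.6 to 82.4 in the other knockdown libraries, and HLA-DMA at 0.254 in the same library, below 0.397 to 0.412. The checkpoint ligand VTCN1 stood at 1.19 in BOLA3-L knockdown replicate 3, below 1.35 to 1.36. MACROH2A1 stood at 268 in BOLA3-L knockdown replicate 2, below 275 to 276. The interferon receptor chain IFNAR2 stood at 29.8 in control replicate 4, above 26.6 to 27.1 in the other controls. In control replicate 1 the interferon-stimulated gene IFI44 stood at 11.2, above 9.5 to 9.79, and KIF20A at 188, above 186. None of the 9 class I genes was among them.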

How the results depend on the processing

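Leaving out 1 library at a time, the class I genes called numbered 1 to 4, those that rose 0 to 2 and those that fell 1 to 3. Calls ranged from 0 to 3 among other class I chains, 3 to 5 among inducible and 1 to 2 among constitutive proteasome genes. They ranged from 4 to 8 among transcription factors, 3 to 7 in interferon signalling and 1 to 5 among surface ligands. Each upper end in these lists came without BOLA3-L knockdown replicate 1. Over the same settings 23.9% to 42.7% of all tested genes were called, with 42.7% also reached without BOLA3-L knockdown replicate 1. The log2 change ranged from -0.08 to 0.25 for HLA-B, -0.20 to -0.08 for HLA-C, -0.13 to -0.09 for HLA-E, 0.07 to 0.12 for TAP1 and 0.15 to 0.20 for ERAP2. With no filter on low counts 0 class I genes rose, against 11.3% of all tested genes. In that setting HLA-C passed (-0.15, edgeR adjusted p 0.0486) and ERAP2 did not (0.17, adjusted p 0.0571). The replicate numbers did not pair the libraries (correlations of same-numbered deviations -0.044 to 0.088), and not every library correlated best with its own number. With a replicate block, 0 class I genes rose (ERAP2 0.17, adjusted p 0.0667), HM13 (0.11, adjusted p 0.0525) and IRF9 (-0.20, adjusted p 0.0532) did not pass, no other named gene changed its call, and 3392 genes were called in all, against 3630. With limma on log2(FPKM + 1), with or without a minimum, 1 class I gene fell, since HLA-E did not pass (-0.09, adjusted p 0.0503 and 0.0509). Limma called 1 surface ligand (with a minimum, also at a pseudocount of 0.1) and 3 interferon signalling genes (no minimum). Of all tested genes it called 30.1% with a minimum, at either pseudocount, and 19.2% with none. GC-corrected offsets called 41.6% of all tested genes. They gave HLA-C -0.16, 3 calls among other class I chains, 5 among folding genes and 2 among constitutive proteasome genes. Without BOLA3-L knockdown replicate 1 as well, these offsets called 42.4% of all tested genes. They then gave HLA-C -0.15, calls of 5, 5 and 2 in those lists, 5 inducible proteasome genes and 4 surface ligands. Signs turned for these genes, none called by edgeR with all libraries: PSMB6 (-0.01), NFYA (-0.01) and CD274 (0.00) with GC offsets without that library, CD274 (0.01) and HLA-DOB (0.01 to 0.02) with limma, and, over the libraries left out, HLA-B, CALR (-0.05 to 0.01), LGALS3BP (-0.07 to 0.02), HLA-DOB (-0.07 to 0.10), IRF1 (lowest -0.00), NFYA (-0.02 to 0.05) and CD274 (-0.04 to 0.02). The cause was not tested. HLA-B rests on 25 to 60 counts per library, and what sets that level was not tested.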
